A study of Mus musculus with 5 samples.

Results

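The S3 segment is the straight end of the kidney's proximal tubule. Its members here are the barcodes that the authors' deposited annotation labels PT(S3) in the 4 healthy mouse kidney libraries. They number 3360 of 11395 healthy barcodes, in a series of 17542 barcodes in all. Because the label came from clustering the same counts, every difference between S3 and other labels is given below as a description without a test.

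The proximal tubule reabsorbs most of the glucose, amino acids, phosphate, bicarbonate and filtered protein. Its convoluted S1 and S2 segments carry the high-capacity carriers, such as the sodium-glucose cotransporter SGLT2. The S3 segment runs through the outer stripe of the outer medulla, recovers what is left with carriers of higher affinity such as SGLT1, secretes organic ions and is rich in peroxisomes. In mice many S3 genes are known to differ between males and females.

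The series compared cell and nucleus isolation and 4 droplet platforms on mouse kidney, with 1 library per group. Whole cells from a healthy kidney of a C57BL/6 mouse were freed with the enzyme Liberase, sorted on light scatter only and run on Drop-seq. Nuclei from healthy kidney were released by detergent lysis and homogenization and run on sNucDrop-seq, DroNc-seq or 10x Chromium. A further 10x nucleus library was made on day 14 of unilateral ureteral obstruction (UUO), which models fibrosis, and serves below only as a side comparison. The labels give no age or sex, and no strain for the nuclei. They do not say whether animals were pooled. All groups are described as unmodified mouse kidney, with no allele or drug named.

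The values are counts of unique molecular identifiers (UMIs), summed over the barcodes of a label in a library and scaled by the total UMIs of that sum to CPM. A gene was taken as measured in a library where the table lists it there and the compared sums held at least 20 counts. A gene at 0 over a whole library is written as listed at 0, with no limit. The smallest library total of a listed gene was 6 counts in DroNc-seq and 4 in 10x, so a 0 there may reflect a filter on rare genes. In Drop-seq and sNucDrop-seq that smallest total was 1 count. Ratios carry exact 95% intervals that cover counting error only, and with 1 library per group no spread between animals can be given. Total UMIs per healthy library were between 2947137 and 6872118, of which S3 held 3875252 with Drop-seq, 1584361 with sNucDrop-seq, 865939 with DroNc-seq and 545273 with 10x. The mitochondrial share of S3 UMIs was 21.7% with Drop-seq cells, 0.193% with sNucDrop-seq, 0.148% with DroNc-seq and 0.0266% with 10x. The libraries also differ in sex-linked transcripts. Xist, transcribed from the inactive X chromosome of females, was listed at 0 in S3 in Drop-seq and sNucDrop-seq, and stood at 1304 CPM in DroNc-seq and 1438 CPM in 10x. The summed level of the Y-linked genes in S3 was 136 CPM with Drop-seq, 429 CPM with sNucDrop-seq, 10.4 CPM with DroNc-seq and 3.67 CPM with 10x. The platform of a library and the sex of its donor therefore cannot be told apart, and each result below is given per library. Of the barcode sequences, 1 occurred in more than 1 healthy library, on a barcode labelled S3.

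S3 was the commonest label of the Drop-seq cells and a minority of each nucleus library. It took 54.6% of Drop-seq cells (1929 of 3531, exact 95% interval 53.0 to 56.3%), 29.4% of sNucDrop-seq nuclei (884 of 3011, 27.7 to 31.0%), 10.6% of DroNc-seq nuclei (294 of 2769, 9.49 to 11.8%) and 12.1% of 10x nuclei (253 of 2084, 10.8 to 13.6%). Among proximal tubule barcodes alone, that is S3 with the joint S1-S2 label, the S3 share was 63.8% with Drop-seq, 48.5% with sNucDrop-seq, 18.3% with DroNc-seq and 35.9% with 10x. The isolation protocol, the sort and the depth all differ between these libraries, and their part in the shares cannot be told apart. S3 barcodes were the deeper ones in each library, with a median of 1667 UMIs against 1554 in S1-S2 with Drop-seq, 1430.5 against 1032 with sNucDrop-seq, 2192 against 1471 with DroNc-seq and 2039 against 1270 with 10x. At equal depth the numbers of genes seen were close. After each barcode was thinned to 500 UMIs, S3 had a median of 325 genes against 311 in S1-S2 with Drop-seq, 383 against 370 with sNucDrop-seq, 366.5 against 361 with DroNc-seq and 366 against 372 with 10x. Before thinning the S3 medians were 852, 896, 1207.5 and 1143 genes in the same order, against 747, 669, 872 and 830.5 in S1-S2. Thinning left out 11 of 253 S3 nuclei and 46 of 452 S1-S2 nuclei in 10x, which had fewer than 500 UMIs.

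**Figure D1:**
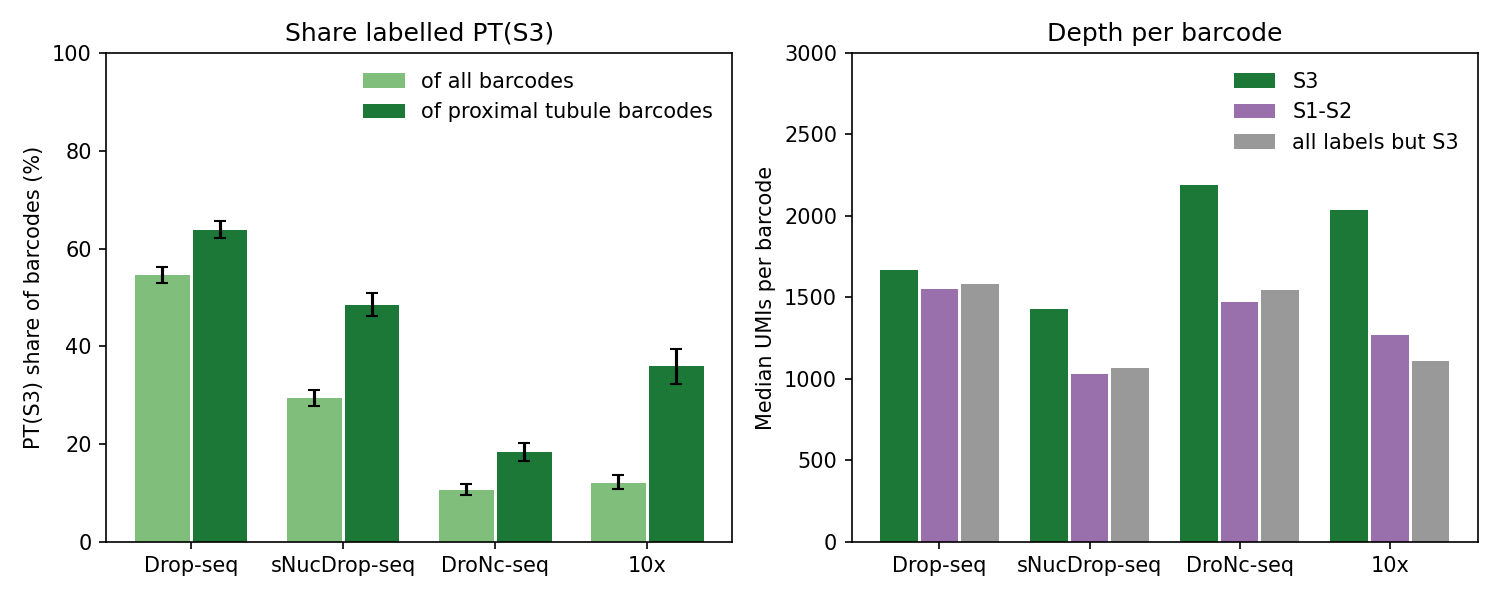
Left, the share of barcodes labelled PT(S3), in percent of all barcodes or of proximal tubule barcodes, in each healthy library, with exact 95% binomial intervals as error bars. Right, the median UMIs per barcode in S3, in S1-S2 and in all labels but S3; S3 is the deepest of the 3 in each library, at 1667, 1430.5, 2192 and 2039 UMIs.

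The S3 label was checked against 4 markers. Among labels with at least 20 barcodes, S3 ranked highest for 3 of them in Drop-seq, for all 4 in sNucDrop-seq and for 2 each in DroNc-seq and 10x. Slc7a13 (chr4:19818725-19842218 in mm10), an aspartate, glutamate and cystine carrier of the S3 brush border, stood in S3 at 843 CPM in Drop-seq and 1084 CPM in sNucDrop-seq. It stood at 5.77 CPM, or 5 counts, in DroNc-seq and was listed at 0 in 10x. In the former libraries the S1-S2 levels were 277 and 296 CPM. Cyp7b1 (chr3:18071950-18243338), an oxysterol and steroid 7-alpha-hydroxylase, stood in S3 at 33.0 CPM with Drop-seq, 684 CPM with sNucDrop-seq, 15.01 CPM with DroNc-seq and 47.7 CPM with 10x. S3 led for it only in sNucDrop-seq; the principal cells of the collecting duct had 42.7 CPM on 3 counts in Drop-seq, 288 CPM in DroNc-seq and 377 CPM in 10x. DroNc-seq S3 thus has neither Slc7a13 nor Cyp7b1 as a mark of its own.

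The other pair of markers ranked highest in S3 in each of the 4 libraries. Atp11a (chr8:12757014-12868728), a phospholipid flippase of the plasma membrane, stood in S3 at 308 CPM with Drop-seq, 1544 CPM with sNucDrop-seq, 528 CPM with DroNc-seq and 684 CPM with 10x. In S1-S2 the same order gave 79.2, 451, 61.3 and 106 CPM, so the log2 ratio of S3 over S1-S2 was 1.96, 1.78, 3.11 and 2.69. Slc22a30 (chr19:8335371-8405111), an organic anion carrier of the mouse, stood at 413, 1271, 97.0 and 156 CPM in S3 and at 267, 713, 71.1 and 98.1 CPM in S1-S2. Its log2 ratio of 0.63, 0.83, 0.45 and 0.67 marks the proximal tubule as a whole more than S3. Slc22a30 lies among near-identical carrier genes, so its reads may be split between copies, and the same caution holds for the Cyp4a, Ugt and Acsm families and for genes that overlap another, as do Atp11a, Napsa, Slc5a2 and Slc34a1.

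**Figure D2:**
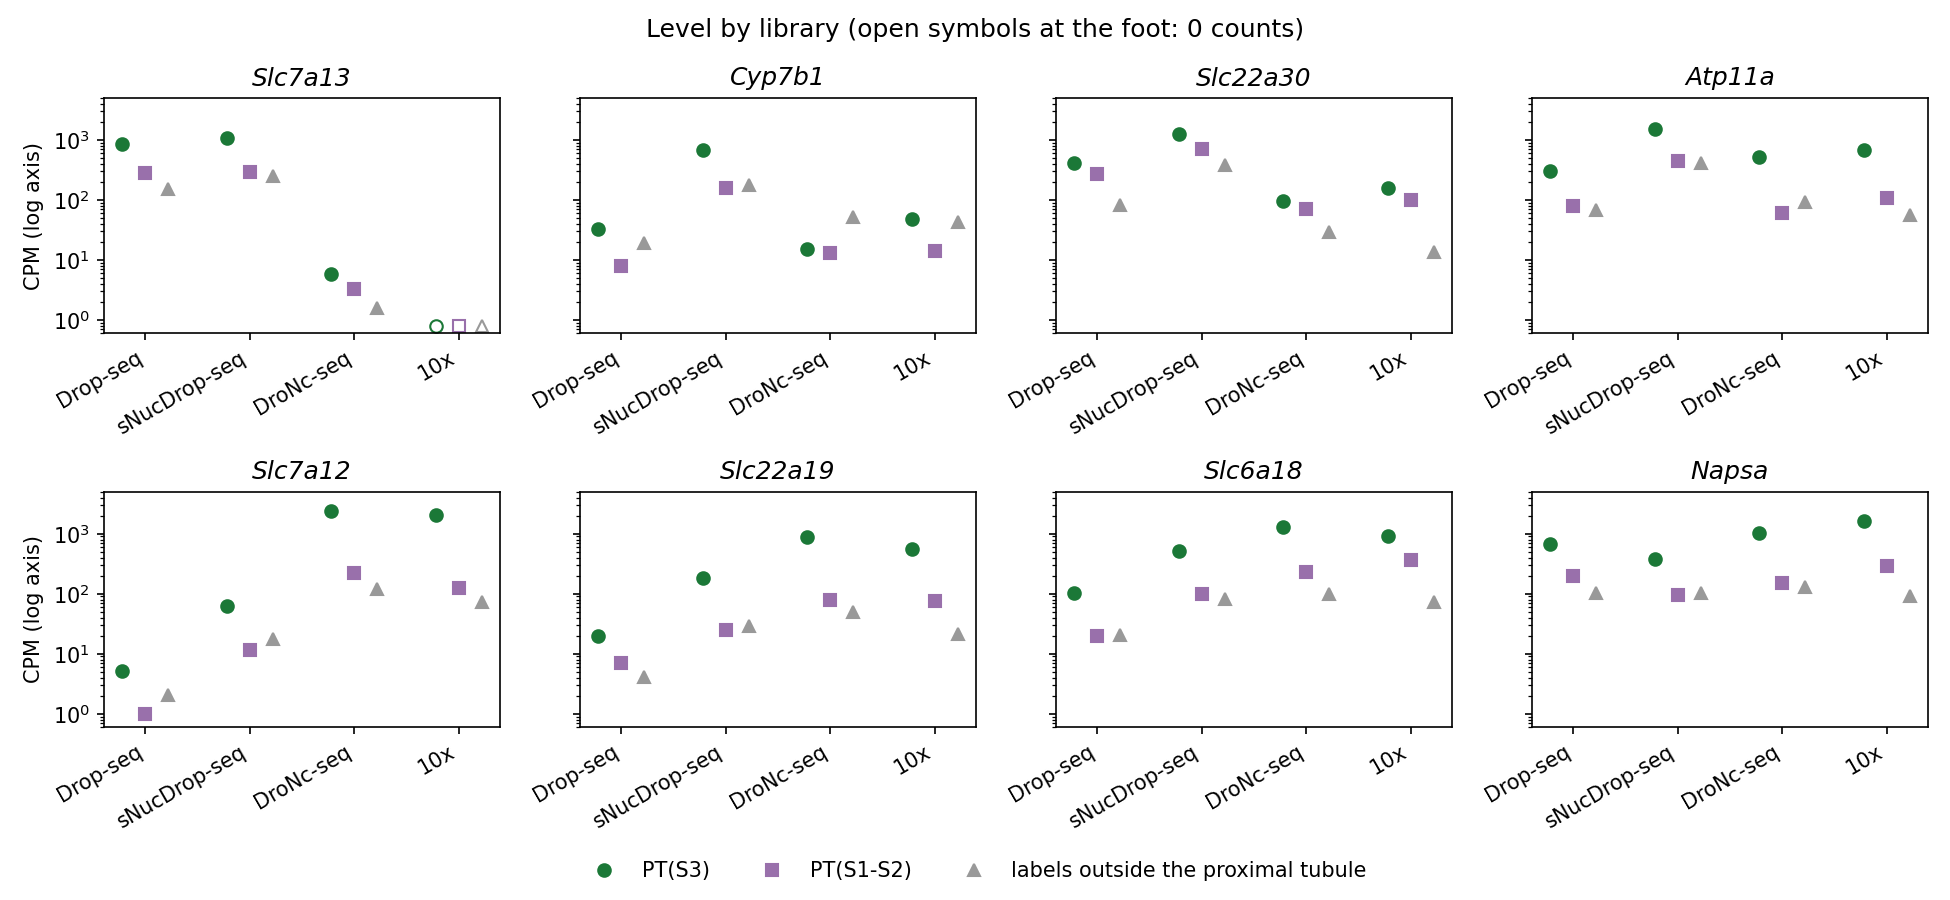
Level in CPM, on a log axis, of the 4 markers (upper row) and of 4 other genes at least 2-fold higher in S3 than in S1-S2 (lower row) in each healthy library, for S3, S1-S2 and the labels outside the proximal tubule; open symbols at the foot are sums of 0 counts. From Drop-seq to 10x, Slc7a13 in S3 is at 843, 1084, 5.77 and 0 CPM, and Slc7a12 at 5.16, 61.9, 2424 and 2047 CPM.

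Single barcodes were also compared at a fixed depth of 500 UMIs. From Drop-seq to 10x, 49.8%, 20.4%, 79.9% and 64.0% of S3 barcodes held no UMI of the 4 markers, against 75.8%, 52.9%, 92.5% and 88.2% of S1-S2 barcodes. With the other straight tubule genes added, the median was 7 UMIs in both labels in Drop-seq. In S3 against S1-S2 it was 4 against 2 UMIs in sNucDrop-seq, 2 against 1 in DroNc-seq and 2 against 1 in 10x. At 500 UMIs each, Slc7a13 was seen in 31.6% of Drop-seq S3 cells and 33.1% of sNucDrop-seq S3 nuclei, against 11.3% and 12.3% in S1-S2. In the ascending limb of the loop of Henle the shares were 7.81% and 6.87%, and in endothelial cells, at median depths of 1619.5 and 836 UMIs, 5.0% and 11.56%; neither type should hold the gene. In sNucDrop-seq the S1-S2 share lay above that of the limb and near that of endothelial cells. Whether it is background was not tested. Unthinned, 62.2% and 57.2% of S3 barcodes had the transcript, against 13.3% and 17.2% in the ascending limb, at median depths of 1667 and 1430.5 UMIs in S3 and 1424.5 and 1128 UMIs in the limb. The unthinned endothelial share in sNucDrop-seq was 21.77%. By level, Slc7a13 stood at 406.5 CPM in Drop-seq endothelial cells and 437.6 CPM in sNucDrop-seq principal cells, above the 277 and 296 CPM of S1-S2. In DroNc-seq and 10x the S3 share of Slc7a13 was 0 after thinning. Slc7a12, a carrier of the same family, did the opposite: it was seen in 43.5% of DroNc-seq and 53.7% of 10x S3 nuclei, against 11.5% and 4.68% in S1-S2 and 1.22% and 1.74% in the ascending limb. Unthinned, those S3 shares were 58.8% and 75.5%, with 6.53% and 4.42% in the ascending limb at median depths of 1774 and 1017 UMIs. In Drop-seq and sNucDrop-seq Slc7a12 was seen in 0.207% and 2.04% of thinned S3 barcodes, against 0 and 0.382% in the limb, too few to set it apart from background in either library. In sNucDrop-seq, S3 ranked 3 by level for Slc7a12, at 61.9 CPM, behind the labels CD-PC and MC at 92.6 and 62.0 CPM. Atp11a was seen in 14.1%, 44.0%, 17.0% and 28.1% of thinned S3 barcodes from Drop-seq to 10x, against 2.34%, 11.8%, 2.86% and 2.70% in the ascending limb.

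Against all other labels of the same library, 69 genes were at least 2-fold higher in S3 in each of the 4 libraries, which is 0.745% of the 9256 genes measured in all 4. For 66 of them every interval lay above 0, and 55 held at least 20 counts in S3 itself in each library. In single libraries the genes at least 2-fold higher were 2.78% of those measured with Drop-seq, 4.32% with sNucDrop-seq, 5.95% with DroNc-seq and 8.03% with 10x, and the count over the libraries was 172 without Drop-seq. For the median gene the log2 ratio was -0.03 with Drop-seq, -0.09 with sNucDrop-seq, -0.12 with DroNc-seq and -0.29 with 10x, and the scaling by TMM factors moved it by up to 0.25. Solute carriers made up 12 of the 69, and 11 of the 193 genes at least 2-fold lower in each library. Their share among all measured genes is not given here, so neither count is read as a trait of S3. Besides Atp11a, the leading genes were the glycine and alanine carrier Slc6a18, the peptidases Napsa, Mep1a and Mep1b, the steroid enzyme Hsd17b2, the organic ion carriers Slc22a7 and Slc17a3, the fatty acid carrier and acyl-CoA ligase Slc27a2, the asparaginase Aspg, the bile acid carrier Slc10a2 and the carboxylesterase Ces1f. Slc27a2 stood in S3 at 3071, 2087, 1344 and 1231 CPM from Drop-seq to 10x and in all other labels at 1160, 810, 484 and 327 CPM. Aspg stood at 21.2, 172, 99.3 and 80.7 CPM in S3 and at 5.00, 42.4, 21.4 and 22.1 CPM elsewhere.

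The genes lower than in all other labels included known genes of the distal nephron. They numbered 193, or 2.09% of those measured in all 4, and 165 of them had every interval below 0. Only 37 of the 193 held at least 20 counts in S3 itself in each library. A gene low in S3 can pass the count minimum through the counts of the other labels alone. In single libraries the genes at least 2-fold lower were 7.74% with Drop-seq, 13% with sNucDrop-seq, 12% with DroNc-seq and 20.7% with 10x. Without Drop-seq the count was 501 and without DroNc-seq 336. The thick ascending limb cotransporter Slc12a1 stood in S3 at 46.7, 646, 803 and 952 CPM and in the other labels at 522, 2748, 2850 and 5302 CPM. Slc26a4, the chloride and bicarbonate exchanger pendrin of type B intercalated cells, stood in S3 at 1.55, 46.1, 28.9 and 18.3 CPM and elsewhere at 29.0, 422, 397 and 296 CPM. For Slc12a1 the S3 levels lay near those in S1-S2, which were 59.4, 752, 815 and 1501 CPM. Slc4a9, Atp6v0d2, Atp6v1c2 and Syn2 were the other leading genes of this direction.

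The comparison with S1-S2 separates S3 from its own tubule. In each of the 4 libraries 40 genes were at least 2-fold higher in S3, 0.589% of the 6793 measured in all 4, and 30 were at least 2-fold lower, 0.442%. For 38 of the 40 and 28 of the 30, every interval was clear of 0. At least 20 counts in S3 itself in each library were held by 37 of the 40 but only 11 of the 30. The rest of the 30 passed the count minimum in some library only with the counts of S1-S2. In single libraries the higher genes were 3.49% with Drop-seq, 4.48% with sNucDrop-seq, 7.31% with DroNc-seq and 6.14% with 10x, and the lower genes 3.14%, 4.01%, 5.2% and 9.59%. Some of these calls lie within counting error: of 380 genes called higher in Drop-seq 274 had an interval above 0, and of 573 called lower in DroNc-seq 363 had an interval below 0. The median gene stood at 0.06, 0.02, 0.03 and -0.13 on the log2 scale from Drop-seq to 10x. Leaving out Drop-seq raised the higher count to 102, and leaving out 10x raised the lower count to 59. The threshold cuts a continuous range: Srd5a2, Bmp4, Agt, Slc9a8 and Mep1a lay just inside, with a smallest log2 ratio over the libraries of 1.02 to 1.05, and Aadat, Ccdc162, Mat2a and Treh were among those just outside, with 0.94 to 0.98.

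Napsa (chr7:44572380-44586862), the lysosomal aspartic peptidase napsin A, stood in S3 at 677 CPM with Drop-seq, 375 CPM with sNucDrop-seq, 1014 CPM with DroNc-seq and 1608 CPM with 10x. In S1-S2 it stood at 194, 95.9, 150 and 293 CPM, and the log2 ratios were 1.80, 1.97, 2.76 and 2.46. The lowest S3 level of any library was thus above the highest S1-S2 level. Mep1a and Mep1b encode the subunits of meprin, a metallopeptidase of the brush border. Mep1a (chr17:43474324-43502812) stood at 458, 263, 249.4 and 422 CPM in S3 and at 185, 95.1, 95.2 and 204 CPM in S1-S2. Mep1b stood at 49.8, 182, 431 and 251 CPM in S3 and at 14.9, 46.4, 38.4 and 26.5 CPM in S1-S2, and its log2 ratio of 3.49 in DroNc-seq and 3.25 in 10x was larger than the 1.75 in Drop-seq and 1.97 in sNucDrop-seq. Myo5a, a myosin motor that moves vesicles, had log2 ratios of 1.93, 1.63, 2.62 and 2.63.

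**Figure D3:**
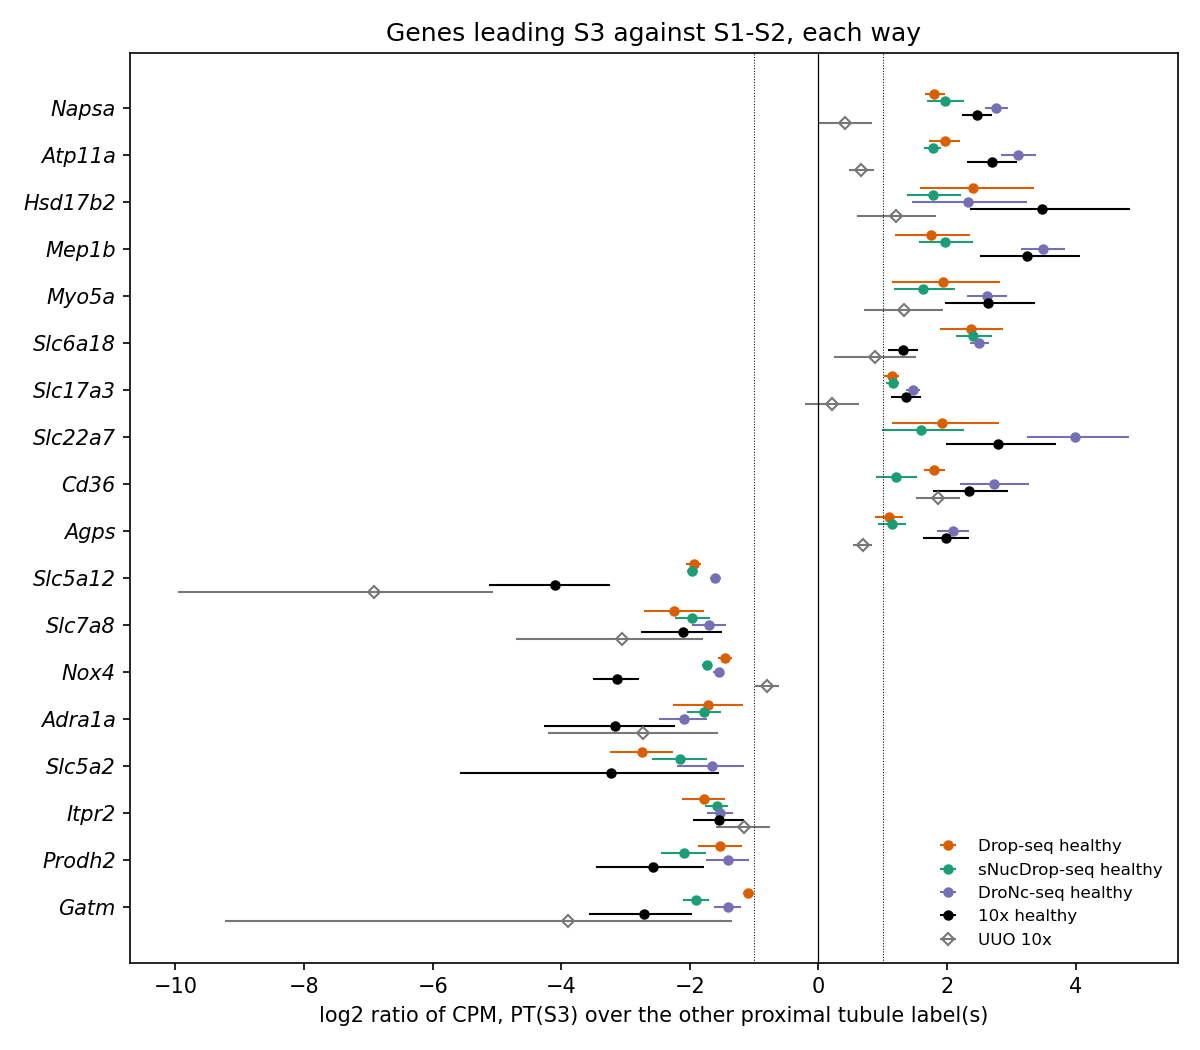
Log2 ratio of CPM in S3 over S1-S2 for the 10 genes that led upwards and the 8 that led downwards, by library, with exact 95% intervals for counting error; open diamonds are S3 over the S1 and S2 labels in the UUO library, and dotted lines mark 2-fold. All filled points of a gene lie on 1 side of 0 by at least 1.09, the UUO diamonds are mostly nearer 0 for the upper genes, and Slc5a12 in UUO lies at -6.91.

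Among carriers of neutral amino acids, some were higher in S3 and others in S1-S2. Slc6a18 (chr13:73661752-73678023), which takes up glycine and alanine at the brush border, stood in S3 at 102, 522, 1295 and 904 CPM from Drop-seq to 10x and in S1-S2 at 19.8, 98.2, 229 and 364 CPM. Its relative Slc6a19, which handles neutral amino acids in the early tubule, ran the other way, with 181, 276, 320 and 27.5 CPM in S3 and 374, 660, 890 and 142 CPM in S1-S2. The basolateral exchangers lay on the S1-S2 side as well. Slc7a8, the light chain of a neutral exchanger, stood in S3 at 14.4, 93.4, 149 and 49.5 CPM against 68.3, 364, 484 and 213 CPM. Slc7a7, the light chain that exports cationic amino acids, had log2 ratios of -1.60, -2.02, -1.54 and -1.39, and the aromatic amino acid carrier Slc16a10 of -1.57, -1.33, -1.44 and -1.16. Slc7a12 was higher in S3 in each library, at 5.16 CPM on 20 counts with Drop-seq, 61.9 CPM with sNucDrop-seq, 2424 CPM with DroNc-seq and 2047 CPM with 10x, against 0.990 CPM on 2 counts, 11.6, 225 and 123 CPM in S1-S2. Its level within S3 therefore differed between libraries far more than its ratio, which was 2.38 (interval 0.34 to 5.52), 2.42, 3.43 and 4.06 on the log2 scale. Over the list of 22 amino acid and peptide transporters, 3 were higher and 5 lower of 20 measured with Drop-seq, 4 and 5 of 21 with sNucDrop-seq, 6 and 5 of 20 with DroNc-seq, and 5 and 6 of 20 with 10x. The list's median log2 ratios of 0.13, 0.35, 0.09 and 0.11 stood beside the all-gene medians of 0.06, 0.02, 0.03 and -0.13, and its members went both ways. Among all genes measured, 3.49%, 4.48%, 7.31% and 6.14% were higher and 3.14%, 4.01%, 5.2% and 9.59% lower.

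Sodium-coupled sugar and monocarboxylate carriers of the early tubule were lower in S3. Slc5a2 (chr7:128265657-128272430), which encodes SGLT2, stood in S3 at 11.9, 37.9, 41.6 and 5.50 CPM, the last on 3 counts, and in S1-S2 at 79.2, 168, 131 and 51.4 CPM. Slc5a12 (chr2:110597298-110647779), a low-affinity lactate carrier, stood at 215, 976, 1672 and 20.2 CPM against 826, 3808, 5078 and 347 CPM. Their log2 ratios were -2.74, -2.15, -1.66 and -3.22 for Slc5a2 and -1.94, -1.96, -1.60 and -4.11 for Slc5a12. At 500 UMIs Slc5a12 was seen in 27.6% of sNucDrop-seq and 35.4% of DroNc-seq S3 nuclei, against 23.3% and 18.8% in the ascending limb and 37.4% and 29.25% in endothelial cells, so the S3 share was not shown to lie above background in either library. Unthinned, those S3 shares were 48.6% and 56.1%, the limb's 40.8% and 37.5%, and the endothelial 46.26% and 35.85%. Slc5a1, which encodes SGLT1, was at least 2-fold higher in S3 in 2 libraries only, at 15.5 against 4.46 CPM in Drop-seq and 31.6 against 6.96 CPM in sNucDrop-seq. In DroNc-seq it was higher by less than 2-fold, at 56.6 against 31.1 CPM, and in 10x lower, at 80.7 against 109 CPM. Slc5a8, a high-affinity monocarboxylate carrier, had log2 ratios of 1.89, 1.07, 0.79 and -0.65. Slc5a10, a mannose and fructose carrier, was on the S3 side in each library at 1.65, 0.87, 1.74 and 0.63. Of the list for glucose transport and gluconeogenesis, 3 were higher and 1 lower of 16 measured with Drop-seq, 2 and 1 of 16 with sNucDrop-seq, 1 and 3 of 16 with DroNc-seq, and 0 and 4 of 14 with 10x, with medians of -0.12, 0.08, 0.31 and -0.54. The shares over all genes were 3.49%, 4.48%, 7.31% and 6.14% higher and 3.14%, 4.01%, 5.2% and 9.59% lower.

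The gene list for S1 and S2 as a whole was lower in S3, and the more so in DroNc-seq and 10x. Of its 18 members, all measured, 7 were lower and 1 higher with Drop-seq, 7 and 1 with sNucDrop-seq, 12 and 0 with DroNc-seq, and 16 and 0 with 10x. Its median log2 ratio was -0.57 with Drop-seq, -0.54 with sNucDrop-seq, -1.28 with DroNc-seq and -2.24 with 10x. The phosphate carrier Slc34a1 (chr13:55398187-55415592) shows this well: S3 stood at 2240, 4516, 1968 and 1979 CPM and S1-S2 at 2666, 5574, 4591 and 14290 CPM, so the log2 ratio went from -0.25 and -0.30 to -1.22 and -2.85. Per barcode at 500 UMIs, the median sum over the list was 4, 7, 5 and 4 UMIs in S3 and 5, 9, 9 and 13 UMIs in S1-S2. Endocytic receptors were less than 2-fold apart in each library. Lrp2, which encodes megalin, had log2 ratios of -0.14, -0.01, -0.03 and 0.66, and Cubn, which encodes its partner cubilin, of -0.62, -0.25, -0.00 and 0.55. Of the endocytic list, 0 were higher in any library, and 1 of 12 was lower with Drop-seq, 0 of 12 with sNucDrop-seq, 1 of 12 with DroNc-seq and 0 of 11 with 10x. Of the carriers of phosphate, sulfate, carboxylates and bicarbonate, 0 were higher in any library and 1 of 15, 1 of 15, 6 of 15 and 8 of 14 were lower. Over all genes measured, the shares from Drop-seq to 10x were 3.49%, 4.48%, 7.31% and 6.14% higher and 3.14%, 4.01%, 5.2% and 9.59% lower.

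Other leading genes of S1-S2 were enzymes and signalling proteins. Nox4 (chr7:87246096-87398710), the kidney's constitutive NADPH oxidase, stood in S3 at 277, 1228, 1440 and 136 CPM and in S1-S2 at 759, 4092, 4226 and 1196 CPM. Gatm, the first enzyme of creatine synthesis, stood at 586, 164, 236 and 29.3 CPM against 1250, 614, 627 and 193 CPM. Prodh2, a hydroxyproline dehydrogenase, stood at 31.0, 54.9, 95.9 and 27.5 CPM against 89.1, 234, 254 and 164 CPM. Adra1a, an alpha-1 adrenergic receptor, had log2 ratios of -1.71, -1.78, -2.10 and -3.17, and Itpr2, a calcium release channel, of -1.78, -1.58, -1.52 and -1.55. Of these 5 genes Itpr2 varied least over the libraries. The glycine decarboxylase Gldc was among the 30 too, with -1.06, -2.40, -1.87 and -1.23.

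**Figure D4:**
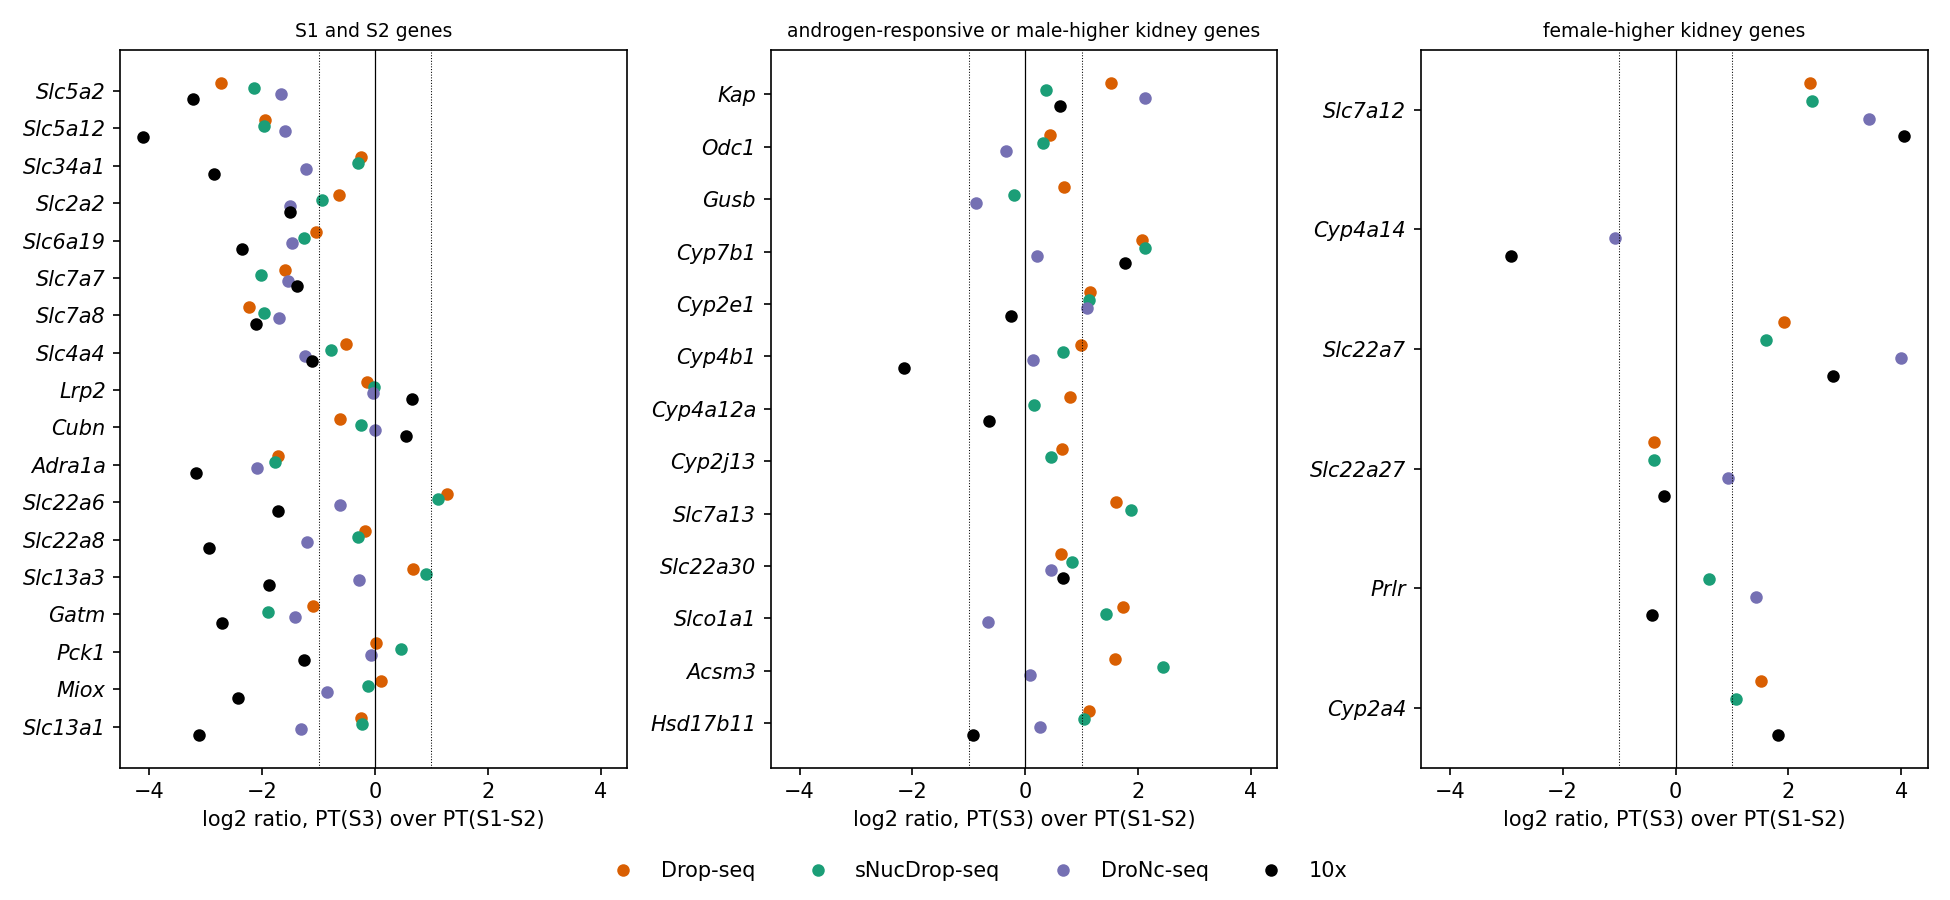
Log2 ratio of S3 over S1-S2 for each measured gene of 3 lists (S1 and S2 genes, male-higher and female-higher kidney genes), with 1 coloured point per healthy library; dotted lines mark 2-fold. In the S1 and S2 list the 10x points lie lowest for most genes, such as Slc5a12 at -4.11, and Slc22a6 lies at 1.27 in Drop-seq and -1.73 in 10x.

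Organic ion carriers were mixed, and several depended on the library. Slc22a7 (chr17:46432183-46438457), an organic anion carrier, stood in S3 at 28.1, 65.6, 111 and 161 CPM from Drop-seq to 10x and in S1-S2 at 7.43, 21.7, 6.95 and 23.4 CPM. Slc17a3 (chr13:23839434-23860716), a urate and anion carrier, stood at 863, 2113, 1469 and 869 CPM against 392, 951, 530 and 339 CPM. Slc22a19 stood at 19.6, 182, 880 and 552 CPM against 6.93, 24.7, 78.9 and 74.7 CPM, and S3 ranked highest among labels with at least 20 barcodes in each library. These 3 were on the S3 side throughout. The organic anion uptake carriers Slc22a6 and Slc22a8 were not: Slc22a6 had log2 ratios of 1.27, 1.11, -0.61 and -1.73, and Slc22a8 of -0.18, -0.30, -1.20 and -2.94. Slco1a6 was higher in S3 to very different degrees, with 376 against 310 CPM with Drop-seq, 2865 against 1362 CPM with sNucDrop-seq, 3663 against 352 CPM with DroNc-seq and 1808 against 601 CPM with 10x. Abcc3, an efflux pump for conjugates, stood on 2 counts in S3 in both Drop-seq and sNucDrop-seq, and at 106 CPM in DroNc-seq and 158 CPM in 10x, where S1-S2 had 5.72 and 9.34 CPM. Over the organic ion list, 6 were higher and 2 lower of 26 with Drop-seq, 10 and 3 of 27 with sNucDrop-seq, 5 and 5 of 27 with DroNc-seq, and 4 and 5 of 24 with 10x, with medians of 0.28, 0.41, -0.07 and -0.26. All genes measured gave 3.49%, 4.48%, 7.31% and 6.14% higher and 3.14%, 4.01%, 5.2% and 9.59% lower.

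Cd36, Agps and Acox2, which act on lipids, were at least 2-fold higher in S3 in each library. Cd36 (chr5:17781690-17888801), a fatty acid uptake receptor, stood in S3 at 586, 200.1, 117 and 253 CPM and in S1-S2 at 168, 86.6, 17.6 and 49.8 CPM. Agps, the peroxisomal enzyme that makes the ether bond of plasmalogens, stood at 239, 408, 403 and 528 CPM against 112, 186, 94.4 and 134 CPM. Acox2, the peroxisomal oxidase of branched chains and bile acid intermediates, had log2 ratios of 1.48, 1.49, 1.78 and 1.44. Of the whole peroxisome and fatty acid oxidation list, 4 were higher and 0 lower of 35 with Drop-seq, 5 and 0 of 34 with sNucDrop-seq, 4 and 1 of 34 with DroNc-seq, and 5 and 8 of 34 with 10x, with medians of 0.28, 0.40, 0.17 and -0.38. Among all genes measured, 3.49%, 4.48%, 7.31% and 6.14% were higher and 3.14%, 4.01%, 5.2% and 9.59% lower. The mitochondrial dehydrogenase Acadm had ratios of 0.67, 0.88, 1.15 and 1.35. Hsd17b2 (chr8:117701904-117759027), which inactivates estradiol and testosterone, stood in S3 at 34.1, 163, 36.9 and 121 CPM and in S1-S2 at 6.44, 47.2, 7.36 and 10.9 CPM. Srd5a2, a steroid 5-alpha-reductase, was also among the 40, but its ratio of 1.02 in Drop-seq had an interval that reached below 0.

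Aadat, an aminotransferase of the kynurenine and lysine pathways, lay just below 2-fold in Drop-seq and far above it elsewhere: S3 stood at 218, 709, 6042 and 6907 CPM and S1-S2 at 111, 224, 435 and 442 CPM. Slc10a2, the ileal-type bile acid carrier, stood in S3 at 46.4, 40.4, 129 and 84.4 CPM and in all other labels at 14.7, 10.8, 37.2 and 24.98 CPM. Their promoters are shown with that of Prodh2 because these 3 windows held letters of a nephron factor's motif. The windows are the 250 bases before the start site, 5′ to 3′ on the gene's strand, from RefSeq on GRCm38.p6, with the match in capitals. It reads TGGACTTTG for HNF4 and AATTATTAAC for HNF1, each on the reverse strand.
Aadat, chr8:60505874-60506123, plus strand: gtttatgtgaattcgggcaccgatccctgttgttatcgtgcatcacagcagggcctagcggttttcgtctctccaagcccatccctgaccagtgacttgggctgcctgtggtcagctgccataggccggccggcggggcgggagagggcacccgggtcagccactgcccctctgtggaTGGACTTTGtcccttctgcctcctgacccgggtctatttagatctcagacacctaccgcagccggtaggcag
Slc10a2, chr8:5105288-5105537, minus strand: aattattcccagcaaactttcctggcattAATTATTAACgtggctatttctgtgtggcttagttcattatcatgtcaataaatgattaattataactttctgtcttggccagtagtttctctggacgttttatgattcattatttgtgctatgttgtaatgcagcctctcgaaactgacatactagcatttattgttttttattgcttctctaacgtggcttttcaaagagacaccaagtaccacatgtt
Prodh2, chr7:30493408-30493657, plus strand: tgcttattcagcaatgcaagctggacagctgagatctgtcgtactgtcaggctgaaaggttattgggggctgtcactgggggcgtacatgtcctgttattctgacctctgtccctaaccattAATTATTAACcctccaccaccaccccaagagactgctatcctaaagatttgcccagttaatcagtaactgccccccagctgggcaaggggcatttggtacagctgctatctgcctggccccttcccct

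The match begins 72 bases before the start in Aadat, 221 in Slc10a2 and 128 in Prodh2. Searched on both strands in windows from 250 bases before to 50 after the start, the HNF1 letters AATTATTAAC, with any base at the fourth letter, occurred in 0.399% of 32851 mouse promoters and the HNF4 letters TGGACTTTG in 0.475%. Of the 69 genes higher in S3 than in all other labels, 53 matched the promoter table with 67 promoters, and 1 of these held the HNF1 letters and 2 the HNF4 letters, Treh being the other. Of the 40 genes higher than in S1-S2, 30 matched with 38 promoters, and 0 held either. Of the 30 lower genes 24 matched with 38 promoters, and 1, that of Prodh2, held the HNF1 letters. The androgen receptor element, AGAACA and TGTTCT with NNN between them, and the repeat of AGGTCA with N between its copies were in 0 promoters of these sets. Over all 32851 mouse promoters they occurred in only 3 and 13, or 0.00913% and 0.0396%. Sets of this size therefore cannot show a lack of either. A match is a count of letters only.

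Genes known to differ between the sexes had very different S3 levels in the 4 libraries. Kap, the androgen-regulated kidney protein, stood in S3 at 43460 CPM with Drop-seq, 3937 CPM with sNucDrop-seq, 1069 CPM with DroNc-seq and 404 CPM with 10x, and in S1-S2 at 15240, 3050, 246 and 265 CPM. Cyp4b1 stood at 3140, 2847, 49.7 and 56.9 CPM in S3, and the acyl-CoA synthetase Acsm3 at 218, 345 and 6.93 CPM and listed at 0 in S3 of 10x. Slco1a1 stood at 323 and 221 CPM in Drop-seq and sNucDrop-seq S3, at 17.3 CPM in DroNc-seq and was listed at 0 in 10x. Over the list of 13 androgen-responsive or male-higher genes, 7 of 13 measured were higher in S3 than in S1-S2 with Drop-seq, 6 of 13 with sNucDrop-seq, 2 of 10 with DroNc-seq and 1 of 7 with 10x, with medians of 1.13, 0.83, 0.17 and -0.25. The summed S3 level of that list was 51460, 12390, 1366 and 743 CPM. Over all genes measured, 3.49%, 4.48%, 7.31% and 6.14% were higher in S3 than in S1-S2. The 6 female-higher genes were summed at 334, 263, 4275 and 2448 CPM in S3 and at 155, 143, 936 and 771 CPM in S1-S2. Of these, 3 were at least 2-fold higher in S3 in each library, of 4, 5, 5 and 6 measured, and 1, Cyp4a14, was lower in DroNc-seq and 10x, at log2 ratios of -1.07 and -2.91. The prolactin receptor Prlr stood in S3 at 3.61, 42.9, 1608 and 121 CPM. The sex-linked transcripts given above move with these levels and with the platform, and their part cannot be told apart.

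Detoxifying enzymes followed the library too. Of the cytochrome P450 list, 6 were higher and 1 lower of 18 with Drop-seq, 6 and 2 of 19 with sNucDrop-seq, 2 and 3 of 14 with DroNc-seq, and 4 and 6 of 17 with 10x, with medians of 0.90, 0.52, 0.17 and -0.55. Cyp2e1, which oxidizes ethanol and small solvents, stood in S3 at 1947, 417, 25.4 and 18.3 CPM and in S1-S2 at 878, 190, 11.8 and 21.8 CPM. Of the conjugation and glutathione list, 3 were higher and 1 lower of 33, 5 and 0 of 31, 6 and 3 of 33, and 6 and 4 of 23 in the same order of libraries. The shares over all genes measured were 3.49%, 4.48%, 7.31% and 6.14% higher and 3.14%, 4.01%, 5.2% and 9.59% lower. The genes of glutathione synthesis were on the S3 side in each library. Gclc, the catalytic subunit of its first enzyme, had log2 ratios of 0.92, 0.92, 0.70 and 1.86, the modifier subunit Gclm 0.51, 0.95, 1.42 and 1.58, and the synthetase Gss 0.83, 0.92, 1.59 and 1.11. Hnf4a, a master transcription factor of the tubule, had ratios of -0.10, 0.04, 0.16 and -0.20, and of the list of 23 factors and receptors 1, 2, 2 and 0 were higher and 1, 1, 0 and 4 lower. The estrogen receptor Esr1 was higher in sNucDrop-seq and DroNc-seq, at 1.08 and 1.72, with 0.48 in Drop-seq and 0.84 in 10x. The factor Maf lay on the S1-S2 side in each library, at -0.82, -0.81, -0.77 and -1.72.

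The overlap between libraries was partial. Among genes measured in both, DroNc-seq and 10x shared 238 genes at least 2-fold higher in S3 than in S1-S2, which is 50.9% of those in DroNc-seq and 56.8% of those in 10x. Drop-seq and sNucDrop-seq shared 108, or 39.0% and 27.3%. Drop-seq and 10x shared 60, or 32.1% and 16.8%. Between 6 and 30 genes per pair of libraries were called in opposite directions, 6 of them between Drop-seq and sNucDrop-seq and 17 between DroNc-seq and 10x. Spearman's rho of the log2 ratio across genes ran from 0.165 for Drop-seq with 10x to 0.364 for DroNc-seq with 10x, over 6885 and 7310 genes that are not independent replicates and share low depth. Against the other labels, rho was 0.515 for DroNc-seq with 10x and 0.519 for sNucDrop-seq with 10x.

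Markers of other cell types were also seen in S3. The ascending limb markers were summed at 360.2, 1448, 1912 and 2056 CPM in S3 and at 444.1, 1765, 1906 and 2796 CPM in S1-S2, beside S3 marker sums of 1598, 4582, 645.5 and 887.6 CPM. The 6 lymphocyte markers in the table were listed at 0 over the whole DroNc-seq and 10x libraries, and the 5 red blood cell markers over the whole 10x library. These values therefore say nothing about S3. Podocyte markers stood at 149, 1148, 2032 and 605 CPM in S3 and at 229, 2404, 2447 and 1252 CPM in S1-S2. DroNc-seq differed, with 4 of 6 measured principal cell markers higher in S3 and a sum of 180 against 76.8 CPM, Avpr2 being listed at 0. Its podocyte markers were higher in 4 of 9, beside 7.31% of all genes measured in DroNc-seq. Their sum was 1241 CPM without the 29 S3 nuclei above 3 times the label's median UMIs. Without those nuclei the principal cell sum was 222.4 CPM. The connecting tubule sum was 1481 CPM without and 1468 CPM with them, against 1044 CPM in S1-S2. The S1-S2 sums keep all nuclei, also the 49 in DroNc-seq above 3 times their own label's median. Macrophage markers were summed at 29.9, 56.2, 135 and 141 CPM in S3 against 39.1, 32.5, 44.6 and 20.2 CPM in S1-S2. In 10x the defining C1qa, C1qb, C1qc, Lyz2 and Ptprc were at 0 in S3, but 4 of these were listed at 0 over the whole library. Csf1r, a member of that list, was itself among the 40 higher genes, at 5.94, 36.6, 103 and 128 CPM against 0.990, 7.73, 6.54 and 10.9 CPM. In Drop-seq, red blood cell markers were summed at 117 CPM in S3 and 306 CPM in S1-S2. The part of these transcripts in the results was not tested. Immediate early genes, which enzymatic digestion can raise, were 4 higher and 0 lower of 18 against S1-S2 in Drop-seq, with a median of 0.43. Among all genes measured there, 3.49% were higher and 3.14% lower, with a median of 0.06. Against all other labels in Drop-seq, 0 of the list were higher and 4 lower of 19, with a median of -0.13. All genes measured gave 2.78% higher and 7.74% lower in that comparison, with a median of -0.03. The stress gene Jun stood at 270 CPM in S3 and 151 CPM in S1-S2 in Drop-seq, and between 0 and 19.6 CPM in S3 nuclei.

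After UUO, S3 kept part of its pattern. The label held 473 of 6147 nuclei, 7.70% of all and 21.96% of those labelled S1, S2 or S3, with no test possible on 1 library. Against the S1 and S2 labels, 370 genes were at least 2-fold higher, 3.69% of 10037 measured, of which 286 had an interval above 0, and 494 were lower, 4.92%, of which 259 had an interval below 0. The median gene lay at 0.03. Of the 40 genes higher in S3 in the healthy libraries, 23 were measured in UUO. Of these, 20 had the same sign, 8 were again at least 2-fold higher and 0 were at least 2-fold lower. Of the 30 lower genes, 25 were measured, 23 had the same sign, 13 were again at least 2-fold lower and 0 were at least 2-fold higher. The UUO library had Xist at 1.29 CPM and the Y-linked Uty at 426.5 CPM in S3, so obstruction and the sex of the donor cannot be told apart against the healthy 10x library. Within UUO, Slc7a12 stood at 318 CPM in S3 and 6.94 CPM in S1 and S2, Cyp7b1 at 274 and 27.3 CPM, Slc7a13 at 80.1 and 8.57 CPM and Cd36 at 203 and 55.9 CPM. Napsa, with 89.2 and 66.9 CPM, and Atp11a, with 425 and 268 CPM, were less than 2-fold apart. Slc5a12 stood at 2.59 against 312 CPM and Slc34a1 at 19.4 against 327 CPM. Mep1b, Slc22a7 and Slc5a2 had 0 counts in UUO S3.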

How the data were processed

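The authors deposited raw UMI counts per gene and barcode, made with zUMIs per the deposited readme, in a table of the 4 healthy libraries and a table of the UUO library. STAR 2.5.3a and mm10 are named in the submitters' processing notes (intron counting, annotation, filters and clustering: not given in the sources used here). Labels came from the authors' deposited annotation, joined by barcode letters and order, and 0 columns belonged to no sample. All barcodes were used, without a doublet caller.

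The members and lists were chosen with earlier results of these data known. Counts were summed per label and library and scaled to CPM, with exact conditional 95% intervals on log2 ratios (Python 3.11.15, numpy 2.4.6, scipy 1.17.1, pandas 2.3.3). A gene counted where the pair of sums held at least 20 counts and was called at 2-fold or more. A sum of 0 was set at 3 counts as a bound. The text names, of genes measured in all 4 libraries, the 12 highest and 6 lowest against all other labels and the 10 highest and 8 lowest against S1-S2 by the interval bound nearest 0, then markers and, from 30 lists, the members with the highest level or at least 4-fold apart. Genes named beyond these (such as Aadat) were chosen after their values were seen. Alternatives were TMM factors (edgeR 4.0.16 in R 4.3.3), median-of-ratios factors, totals without mitochondrial and ribosomal genes, count minimums of 1 and 100, barcodes of at least 1000 UMIs, thinning to 300 or 1000 UMIs and leaving out each library. The calculations were tested on simulated data. Coordinates are mm10.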

Additional observations from a re-analysis of the deposited data

Results flagged for a closer look

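Only named genes and list members were screened here, with intervals clear of 0 required. For 7 of them S3 lay at least 2-fold above S1-S2 in some healthy libraries and at least 2-fold below in others. Over all genes measured, and without the interval rule, between 6 and 30 genes per pair of libraries were called in opposite directions. These differences between libraries were not tested, since each library stands alone. The organic anion carrier Slc22a6 had a log2 ratio of 1.27 in Drop-seq and 1.11 in sNucDrop-seq but -1.725 in 10x. The fatty acid omega-hydroxylase Cyp4a10, of a family with near-identical copies, had 1.046 in Drop-seq and 1.17 in sNucDrop-seq but -1.26 in 10x. The noncoding RNA Snhg11 had -2.157 in Drop-seq, 1.359 in DroNc-seq and 4.062 in 10x. DroNc-seq S3 lay above S1-S2 for 4 genes of other kidney cells: the secreted chaperone Clu at 1.498 against -1.253 in Drop-seq, the distal tubule kallikrein Klk1 at 1.419 against -1.274 in Drop-seq, the collecting duct enzyme Hsd11b2 at 1.467 against -1.94 in Drop-seq, and the podocyte sialomucin Podxl at 1.136 against -1.48 in 10x. These 4 stood in DroNc-seq S3 on 16, 71, 45 and 42 counts.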

How the results depend on the processing

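No named call reversed with TMM factors or with totals without mitochondrial and ribosomal genes. Named genes were not followed singly under the other alternatives. Of the 69 genes higher than all other labels, a minimum of 100 counts left 31, equal weight per other label gave 175, and leaving out 1 library gave 79 to 172, the highest without Drop-seq. The 193 lower genes became 320 at a minimum of 1 count, 47 at 100, 383 with equal weight per label and 222 to 501 leaving out 1 library, the highest without Drop-seq. Against S1-S2, the 40 higher genes became 17 at 100 counts and 45 to 102 leaving out 1 library, and the 30 lower genes 48 at 1 count, 16 at 100, 16 with the mean of CPM over barcodes and 36 to 59 leaving out 1 library, the highest without 10x. In UUO the 370 higher genes became 1772 at 1 count and 75 at 100, and the 494 lower genes 987 and 91. Fewer or more genes tested set the counts at other minimums; otherwise the cause was not tested. Among barcodes of at least 1000 UMIs the S3 share was 34.8% in sNucDrop-seq and 17.0% in 10x. The summed S3 markers in Drop-seq were 2106 CPM without mitochondrial and ribosomal genes in the total, against 1598 CPM. TMM moved the 10x medians by 0.25 against all other labels and 0.13 against S1-S2. Of the values of named genes, TMM factors moved 99 and left 799 within their interval. List medians have no interval and were judged by the size of the shift, by which 47 moved and 157 did not. Leaving out barcodes above 3 label medians, chosen after seeing the data for the marker lists, moved 4 of those sums and left 44. No paired analysis was possible because each group has 1 library. Depth limits genes under 20 counts, such as most injury genes in S3 nuclei.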

Other observations

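The values of 5 receptor or secreted-factor genes, chosen after they were seen, are given here. Ghr, the growth hormone receptor, stood in S3 at 764, 8114, 10770 and 19430 CPM in Drop-seq, sNucDrop-seq, DroNc-seq and 10x, and in S1-S2 at 439, 3939, 2771 and 5310 CPM. Agt, the precursor of angiotensin, stood at 13.2, 10.1, 20.8 and 34.8 CPM against 6.44, 3.09, 5.72 and 14.01 CPM. Bmp4, a growth factor of the TGF-beta family, stood at 29.4, 89.0, 76.2 and 139 CPM against 13.4, 40.2, 35.97 and 68.5 CPM. Ptn, the heparin-binding growth factor pleiotrophin, stood at 24.5, 249.9, 21.9 and 115.5 CPM against 11.4, 55.7, 2.86 and 6.23 CPM. Plau, the urokinase plasminogen activator, stood at 56.2, 61.2, 187 and 101 CPM against 21.3, 27.1, 63.0 and 32.7 CPM. Ghr was under 2-fold in Drop-seq, while the other 4 were at least 2-fold higher in S3 in each library.

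Rnf24, a membrane-bound ubiquitin ligase, had the widest range of these genes: S3 stood at 68.1, 557, 651 and 3574 CPM and S1-S2 at 30.2, 127, 50.7 and 117 CPM, a log2 ratio of 1.17, 2.13, 3.68 and 4.94. The injury receptor gene Havcr1 stood in healthy S3 on 7 and 2 counts in Drop-seq and sNucDrop-seq, and at 52.0 CPM on 45 counts in DroNc-seq and 36.7 CPM on 20 counts in 10x, where S1-S2 had 4.50 and 4.67 CPM. In UUO it stood at 331 CPM in S3 and 206 CPM in S1 and S2. The sex-linked transcripts and the platform go with this difference between libraries and cannot be told apart.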
